A study of Mus musculus with 2 samples.

Results

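Oligodendrocyte (OL) lineage transcription factors outside the Sox family were measured in optic nerves at P12. The set held 8 genes, *Olig1*, *Olig2*, *Nkx2-2*, *Nkx6-2*, *Myrf*, *Zfp488*, *Zfp536* and *St18*, out of 23951 gene symbols found in both libraries. They were listed by name from their known place in the lineage, with earlier results of these data known, and each had 1 row in each library. The RNA-seq consisted of 1 control library (Tcf7l2 c/+; OLig1-cre) and 1 mutant library (Tcf7l2 c/c; OLig1-cre), the latter called *Tcf7l2* cKO in the labels and *Tcf7l2*ΔHMG in the paper. Both groups carried Olig1-Cre, which acts in the OL lineage, and at least 1 floxed *Tcf7l2* allele, so the control was heterozygous in that lineage. Excision of the floxed exon 11 removes the DNA-binding HMG box of Tcf7l2 in frame, and the mutant messenger RNA can still be made. The level of *Tcf7l2* itself was 17.8 FPKM for the control library and 14.6 for the mutant library (log2 ratio −0.28), a whole-gene value that does not check the excision. The number of animals in each library is not given in the sources used here.

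OLs arise from precursor cells (OPCs), pass through a premyelinating stage and then wrap axons. Olig2 and Olig1 are basic helix-loop-helix factors, of which Olig2 is needed to specify OPCs. Nkx2-2 is a homeodomain factor of progenitors that also acts as precursors begin to differentiate. These 3 were taken as specification factors. The paper counts *Olig1*, with *Sox10* and *Myrf*, among the genes that regulate myelination, so placing it in this group is a choice. Nkx6-2 (homeodomain), Myrf (a membrane-bound factor needed for myelin gene expression), Zfp488 (a zinc finger partner of Olig2), St18 (a zinc finger protein of the Myt family) and Zfp536 (a zinc finger protein found in OLs, with a less certain role) were taken as the 5 differentiation factors.

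All 8 factors had a lower level in the mutant library than in the control library. The median log2 ratio was −0.56 over the 3 specification factors (lowest −1.24, highest −0.15) and −0.57 over the 5 differentiation factors (lowest −0.74, highest −0.48). With 3 genes, the specification median is the ratio of *Olig2*, and it was −0.90 without *Nkx2-2* and −0.36 without *Olig1*. By summed level the specification factors were at 0.511 of the control (390.4 and 199.5 FPKM, mostly *Olig1*) and the differentiation factors at 0.671 (201.3 and 135.0 FPKM). Whether the groups differ was therefore not settled by these genes. The specification factors held both extremes, *Olig1* with the lowest ratio and *Nkx2-2* with a ratio near 0, and their ratios ranged over 1.09 log2 units, against 0.26 among the differentiation factors. With 1 library per genotype there was no replicate check and no test was possible, so every difference below compares these 2 libraries only. In whole tissue, fewer cells of a type and less RNA per cell cannot be told apart.

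Levels are given as FPKM (fragment counts corrected for transcript length and for sequencing depth), computed by the authors with Cufflinks, which also gives a lower and an upper bound for each value. Ratios are mutant to control on the log2 scale after 0.1 was added to each FPKM, and the error quoted beside a ratio is the range that the bounds of both libraries allow. That range covers counting and assignment of fragments within a library and not variation between animals. A gene was tested if its FPKM was at least 1 in at least 1 library and its Cufflinks status was OK in both (14199 genes), and all 8 factors met this. The depth read from the tables was 27624000 fragments for the control and 39938000 for the mutant, a ratio of 1.45. At these depths 3 fragments on 1 kb correspond to 0.11 and 0.075 FPKM, far below every factor of the set.

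*Olig1*, on chromosome 16 from 91270014 to 91272184 (mm9), stood at 273.2 FPKM in the control library against 115.2 in the mutant. It was the most abundant factor in both libraries and had the lowest log2 ratio, −1.24, a level 2.37-fold lower. The control value lay above its own Cufflinks interval of 244.2 to 255.5, and the mutant interval was 113.6 to 119.6. The bounds alone allowed ratios from −1.17 to −1.03, which correspond to levels 2.04-fold to 2.25-fold lower. Of the tested genes, 2.63% had a lower log2 ratio. Both genotypes carried Cre under *Olig1*, and whether that driver alters the *Olig1* transcript is not given in the sources used here.

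*Olig2*, which lies on the same chromosome from 91225795 to 91228922, was at 95.6 FPKM in the control (interval 93.4 to 99.6) and 64.8 in the mutant (interval 59.3 to 63.8). The log2 ratio was −0.56, with a range of −0.75 to −0.55 from the bounds, and 9.11% of tested genes had a lower one. The libraries were therefore apart by more than their intervals for both neighbouring *Olig* genes, but not by the same amount. Within the control library *Olig1* was at 2.86 times the level of *Olig2*, and within the mutant at 1.78 times. The bounds put that quotient between 2.45 and 2.74 in the control and between 1.78 and 2.02 in the mutant. These ranges do not overlap (the control quotient of the FPKM values lay above its own range and the mutant one just under its own), and a quotient within a library does not depend on how the libraries are scaled. Its log2 difference, mutant minus control, was −0.68 by the FPKM values and −0.62 to −0.28 by the bounds.

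*Nkx2-2* was the exception. Its row ran on chromosome 2 from 147003282 to 147020716 in the control and from 147002308 to 147019966 in the mutant. It was at 21.7 FPKM in the control (interval 18.7 to 22.2) and at 19.5 in the mutant (interval 16.9 to 19.4). The intervals overlapped, the log2 ratio was −0.15, and the bounds allowed −0.39 to 0.06, so a difference in *Nkx2-2* was not detectable here. That range overlapped those of *Nkx6-2*, *Zfp488* and *Zfp536*, so *Nkx2-2* was not separated from these 3 by the bounds. Relative to *Olig2* in the same library, *Nkx2-2* stood at 0.227 in the control (0.188 to 0.238 by the bounds) and 0.300 in the mutant (0.265 to 0.328).

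The *Nkx2-2* value rests on a crowded locus. Its span overlapped *Nkx2-2os*, annotated on the opposite strand, which was listed at 53.2 FPKM in the control against 1.81 in the mutant. The control value of *Nkx2-2os* lay far above its own interval of 18.1 to 26.7, while the mutant value lay within its interval of 1.58 to 2.05. A second transcript annotated on the opposite strand, *6430503K07Rik*, went the other way, from 2.66 FPKM in the control to 35.5 in the mutant, where its interval was 3.60 to 7.68. Over the stretch that the *Nkx2-2* rows of both tables cover together, from 147002308 to 147020716, lay 4 unnamed rows of the control table and 17 of the mutant table. Whether the library kit kept strand is not given in the sources used here, so fragments of *Nkx2-2* and of the transcripts opposite it cannot be told apart. The part of this in the *Nkx2-2* value was not tested.

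**Figure D1:**
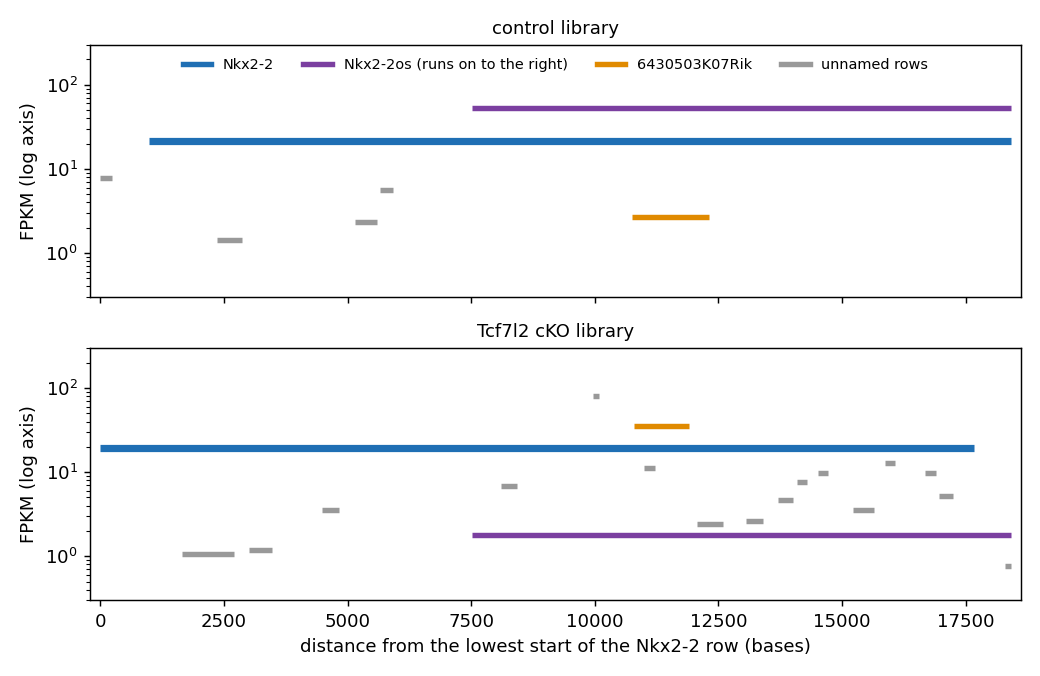
Rows of the deposited tables that overlap *Nkx2-2*, as horizontal bars at their FPKM (log axis) against the distance in bases from the lowest start of the *Nkx2-2* row, for the control library (top) and the mutant library (bottom). *Nkx2-2* stays at 21.7 and 19.5 FPKM, while *Nkx2-2os* is at 53.2 in the control and 1.81 in the mutant, *6430503K07Rik* is at 2.66 and 35.5, and unnamed rows number 4 and 17.

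The 5 differentiation factors lay close together on the ratio scale, and for each of them the intervals of the 2 libraries did not overlap. *Myrf*, on chromosome 19 from 10282463 to 10315240 in the control, was at 106.6 FPKM in the control (interval 105.7 to 110.2) and 70.2 in the mutant (interval 69.4 to 72.6). Its log2 ratio of −0.60 had the narrowest range from the bounds of the set, −0.67 to −0.54. *Zfp488*, on chromosome 14 from 34780256 to 34791950, was at 43.6 FPKM in the control (interval 42.3 to 45.5) and 29.4 in the mutant (interval 28.5 to 32.6), a log2 ratio of −0.57 with a range of −0.67 to −0.37. By the FPKM values both factors thus stood at about the same share of their control level as *Olig2*, which was 67.8%, against 65.8% for *Myrf* and 67.5% for *Zfp488*. The mutant value of *Olig2* lay above its own interval, however. With the lower or upper bounds in place of FPKM, the log2 ratio was −0.65 or −0.64 for *Olig2*. It was −0.61 or −0.60 for *Myrf* and −0.57 or −0.48 for *Zfp488*.

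*Nkx6-2*, on chromosome 7 from 146765275 to 146768696, had 34.4 FPKM in the control library and 24.6 in the mutant library. Each value lay above its own interval (29.3 to 33.9 and 21.1 to 24.1), and the log2 ratio was −0.48 with a range of −0.68 to −0.28. Its span met the end of *Inpp5a*, which was higher in the mutant on the deposited scale (11.3 and 14.8 FPKM). *Nkx6-2* was the least lowered of the differentiation factors, but its range overlapped those of the other 4.

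*Zfp536* and *St18* were the least abundant members. *Zfp536*, on chromosome 7 from 38103075 to 38555352 in the control, was at 9.54 FPKM there (interval 9.13 to 10.1) and 6.52 in the mutant (interval 6.14 to 7.01), a log2 ratio of −0.54 with a range of −0.70 to −0.38. *St18*, on chromosome 1 from 6477312 to 6851104 in the control, was at 7.15 FPKM there (interval 6.58 to 7.74) and 4.25 in the mutant (interval 3.89 to 4.63). Its log2 ratio of −0.74 was the lowest among differentiation factors, with the widest range from the bounds, −0.97 to −0.50, since its intervals were about 8.12% of their centre to either side in the control and 8.71% in the mutant. For *Myrf* the same half-widths were 2.06% and 2.25%. The range of *St18* overlapped that of each other differentiation factor, so the order of the 5 by log2 ratio was not resolved. Unnamed rows overlapped the span of *Zfp488* (6 in the control table and 0 in the mutant table), of *St18* (5 and 1) and of *Zfp536* (1 and 3), and none overlapped *Olig1*, *Olig2*, *Myrf* or *Nkx6-2*.

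**Figure D2:**
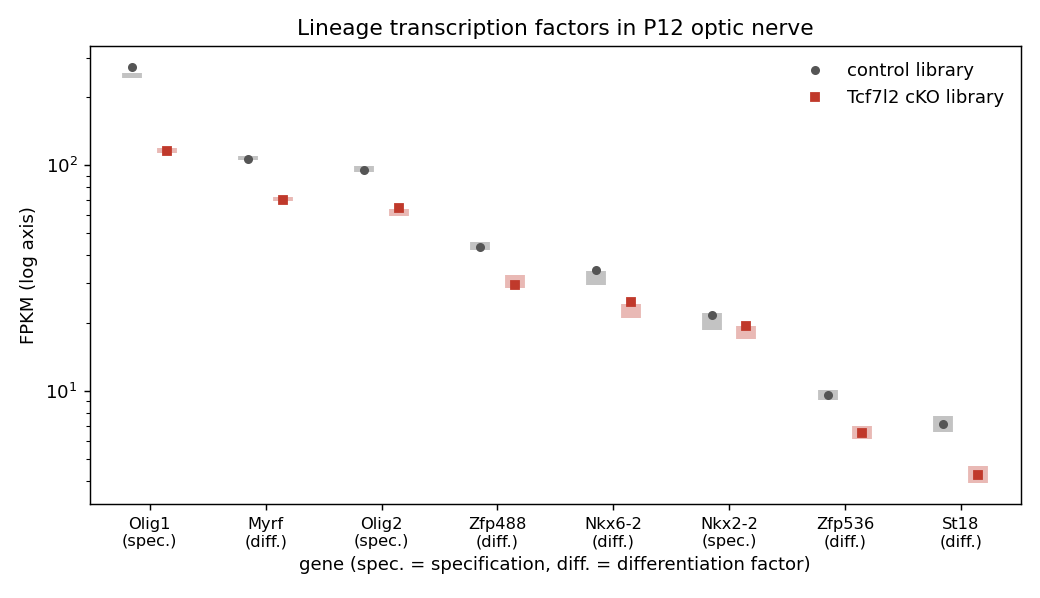
FPKM on a log axis of the 8 factors in the control library (circles) and the *Tcf7l2* cKO library (squares), with shaded bars for the Cufflinks interval of each value. Each square lies below its circle, from *Olig1* (273.2 and 115.2 FPKM) to *St18* (7.15 and 4.25 FPKM), and *Nkx2-2* has the smallest gap (21.7 and 19.5 FPKM).

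The order of the levels was the same in both libraries. It ran from *Olig1* through *Myrf*, *Olig2*, *Zfp488*, *Nkx6-2*, *Nkx2-2* and *Zfp536* to *St18*. The intervals of neighbours in this order did not overlap within the control library or within the mutant library. *Myrf* was at 1.12 times the level of *Olig2* in the control and 1.08 times in the mutant, and *Zfp488* at 0.456 and 0.454 times the level of *Olig2*. *Zfp536* was at 0.0895 times the level of *Myrf* in the control and 0.0928 in the mutant. By the bounds, the ranges of these 3 quotients overlapped between the 2 libraries. That of *Myrf* to *Olig1* did not, being 0.390 in the control (0.414 to 0.451 by the bounds, since the control FPKM of *Olig1* lay above its interval) and 0.609 in the mutant (0.580 to 0.639).

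Against all tested genes the set lay to the lower side. A level lower by over 1.5-fold was found for 3 of the 8 factors (*Olig1*, *St18* and *Myrf*), beside 8.52% of all tested genes, and none was higher by over 1.5-fold, beside 15.4% of all tested genes. *Olig1* alone was lower by over 2-fold, beside 3.68%. That cutoff of 1.5 separated values that hardly differed, since *Myrf* was 1.52-fold lower and *Zfp488*, *Olig2* and *Zfp536* were 1.48-fold, 1.47-fold and 1.46-fold lower. Intervals that did not overlap, with the lower value in the mutant, were found for 7 of the 8 factors, beside 22.3% of all tested genes, and with the higher value in the mutant for none, beside 30.0%. All 8 were lower at any size, beside 45.4%, and none was higher, beside 54.6%. The median log2 ratio of all tested genes was 0.047 and 5% of them lay below −0.83. Of the factors, only *Olig1* lay below that value.

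**Figure D3:**
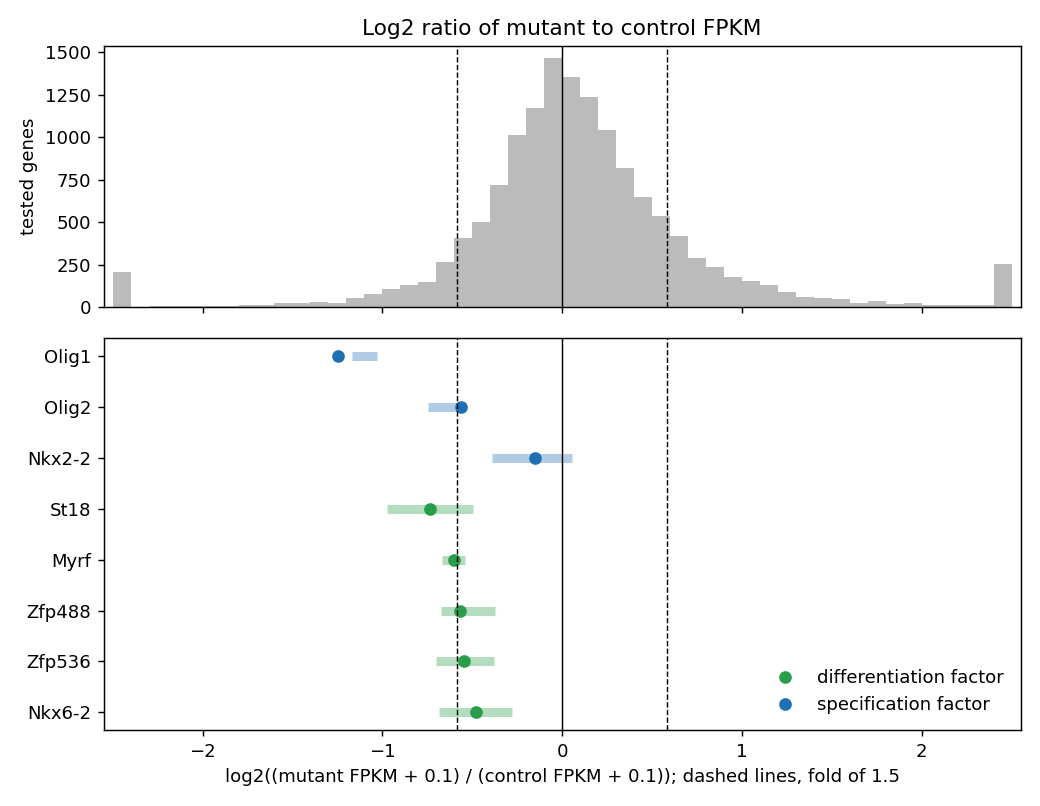
Top, the number of tested genes (14199) by log2 ratio of mutant to control FPKM in bins of 0.1, with values beyond the axis drawn in the outermost bins. Bottom, the log2 ratio of each factor (points) with the range that the Cufflinks bounds of both libraries allow (bars); the 5 differentiation factors lie between −0.74 and −0.48, *Olig1* at −1.24 and *Nkx2-2* at −0.15, and the *Olig1* point lies outside its bar because its control FPKM lies above its interval.

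Relatives of these factors by protein family were mostly at low levels. *Olig3* had 0.019 FPKM in the control library and 0.013 in the mutant library, and *Nkx2-3* and *Nkx2-6* were listed at 0 in both libraries. *Myrfl*, the relative of *Myrf*, was at 0.025 and 0.026 FPKM. Of the 13 relatives listed, 3 met the filter. *Myt1*, a zinc finger factor related to *St18*, was at 7.96 FPKM in the control (interval 7.29 to 8.64) and 4.78 in the mutant (interval 4.41 to 5.16). Its log2 ratio of −0.72 lay beside that of *St18* (−0.74). *Nkx6-1*, the nearest relative of *Nkx6-2*, went the other way, from 7.11 FPKM (interval 6.47 to 7.77) to 12.5 (interval 11.7 to 13.4), a log2 ratio of 0.81, against −0.48 for *Nkx6-2*. *Nkx2-1* had 0.52 FPKM in the control library and 1.15 in the mutant library, and so met the filter only through the mutant.

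Other regulators of the lineage did not share the direction of the set on the deposited scale. The median of the other regulators turned to −0.57 when each whole table was brought to the same total, where the median of all tested genes was −0.61. Of 22 listed genes, all of which met the filter, 7 were lower and 15 higher in the mutant, with a median log2 ratio of 0.093. A fold over 1.5 was passed by 2 lower genes (*Sox10* and *Sox8*), beside 8.52% of all tested genes, and by 2 higher genes, beside 15.4%. The lower count is near the share over all tested genes. *Sox10*, a partner of the Olig factors in myelin gene expression, had a log2 ratio of −0.91, and *Sox8* one of −0.60. Among the higher genes *Gli2*, an effector of hedgehog signalling, was at 1.19 and 2.13 FPKM (log2 ratio 0.79). Outside the Sox genes, 3 of 16 listed regulators were lower and 13 higher, with a median log2 ratio of 0.11, the lowest being *Zbtb33* (Kaiso) at −0.42.

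Genes that mark the stages of the lineage were set beside the factors. The median log2 ratio was −0.27 over 10 OPC markers, −0.59 over 10 premyelinating markers and −0.82 over 20 myelin markers. Levels lower by over 1.5-fold numbered 3, 6 and 11 of these, beside 8.52% of all tested genes. *Gpr17* stands in both of the first lists. Of the OPC markers 8 were lower and 2 higher in the mutant, from *Neu4* (log2 ratio −1.02) to *Ptprz1* (0.36). Between these, *Pdgfra*, the receptor that marks OPCs, was at 35.9 and 33.6 FPKM (log2 ratio −0.09, with a mutant interval that reached 161.1). *Cspg4* had a log2 ratio of −0.30. Among premyelinating markers *Casr* was lowest (17.7 to 3.09 FPKM, log2 ratio −2.48) and *Bmp4* highest (38.0 to 68.6 FPKM, log2 ratio 0.85). The medians of both groups of factors lay near that of the premyelinating markers, and the ratio of *Nkx2-2* lay above the OPC median. Likeness could be measured only by the difference of log2 ratios, with 2 libraries, and was sought among the other lineage regulators and the OPC, premyelinating and myelin markers, not among the family relatives. There *Olig1* lay nearest to *Hapln2* (−1.31), *Olig2* to *Mog* (−0.55), *Myrf* to *Sox8* (−0.60), *Zfp488* to *Fa2h* (−0.57) and *Nkx2-2* to the OPC marker *Matn4* (−0.12). *Nkx6-2* lay nearest to *Trf* (−0.48), *Zfp536* to *Mbp* (−0.54) and *St18* to *Cnp* (−0.81). *Hapln2*, *Mog*, *Fa2h*, *Trf*, *Mbp* and *Cnp* are from the myelin list, which held 20 genes against 10 premyelinating markers. The differences to the nearest genes, at most 0.075, were smaller than the width of each factor's range from the bounds. For *Myrf*, *Gpr17* (−0.59) also lay within that range. Which list a factor lay nearest to was therefore not resolved.

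**Figure D4:**
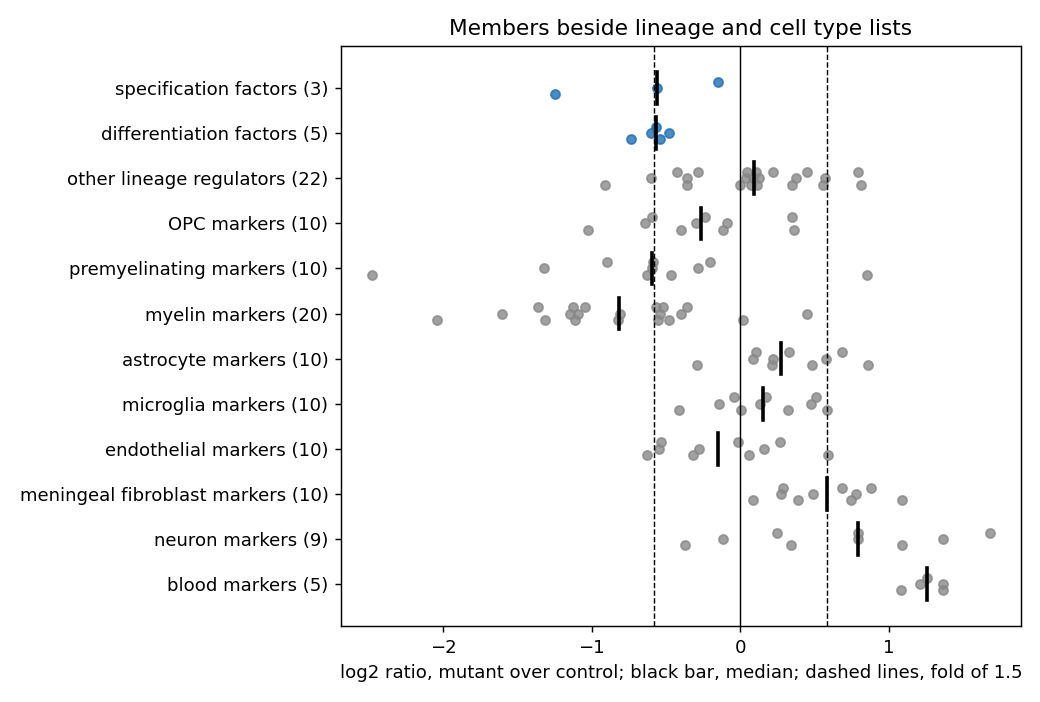
Log2 ratio of mutant to control FPKM of each tested gene (points) in the 2 groups of factors (blue) and in lists of other regulators and of cell type markers (grey), with the number of genes in parentheses and the median as a black bar. The medians of the specification and differentiation factors (−0.56 and −0.57) lie beside that of the premyelinating markers (−0.59), below the OPC markers (−0.27) and above the myelin markers (−0.82).

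Markers of other cells also differed between the libraries on the deposited scale, with median log2 ratios of 0.58 (meningeal), 1.25 (blood), 0.27 (astrocyte), 0.15 (microglia), −0.15 (endothelial) and, over neuron markers that reached an FPKM of 1 in both libraries, 0.56. All 10 meningeal fibroblast markers were higher in the mutant, 5 of them by over 1.5-fold, beside 15.4% of all tested genes. Their summed level was 2012 FPKM in the control against 3091 in the mutant. The 3 blood marker rows that reached an FPKM of 1 in both libraries, all haemoglobin genes with *Hba-a1* and *Hba-a2* merged in 1 row, were over 1.5-fold higher, and all listed blood markers summed to 163.0 and 402.9 FPKM. Of the astrocyte markers 9 of 10 were higher (5512 and 6539 FPKM in sum), of the microglia markers 7 of 10 (349.9 and 422.9), and of the endothelial markers 4 of 10 (196.0 and 176.8). Of 8 neuron markers that reached an FPKM of 1 in both libraries, 6 were higher (112.5 and 140.8 FPKM in sum over all 10 listed), and *Rbfox3*, which marks neuronal cell bodies, was at 0.66 and 1.51. No marker of these lists was at 0 in either library. Myelin markers summed to 33640 FPKM in the control against 19368 in the mutant, with *Mbp*, a main myelin protein, at 16990 and 11646 FPKM. The part that unequal shares of other tissue had in the lower levels of the 8 factors was not tested.

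The promoters of factors whose ratios lay close together and of *Nkx2-2* were compared for shared letters. RefSeq (GRCm38.p6) gave entries for 5 of the 8 factors, *Olig2*, *Nkx2-2*, *Nkx6-2*, *Zfp488* and *Zfp536*, and the 250 bases before each start were searched on both strands. The core of the TCF/LEF motif (TCAAAG) was in none of the 5, and it was in 13.8% of all 32851 promoters of this length. A SOX core (ACAAAG or ACAATG) was in 1 of them, *Olig2*, and in 25.2% of all promoters. An E-box of the kind basic helix-loop-helix factors bind (CAGCTG or CAGATG) was in 1, *Nkx2-2*, and in 25.5% of all promoters. No match overlapped another. The stretches are printed 5′ to 3′ on the gene's strand, with matches in capitals, for *Olig2* (chr16:91225300-91225549, plus strand) and *Zfp488* (chr14:33978765-33979014, minus strand), whose log2 ratios were −0.56 and −0.57, and for *Nkx2-2* (chr2:147186403-147186652, minus strand), whose ratio was −0.15. These positions are on GRCm38.p6 and not on mm9.
Olig2: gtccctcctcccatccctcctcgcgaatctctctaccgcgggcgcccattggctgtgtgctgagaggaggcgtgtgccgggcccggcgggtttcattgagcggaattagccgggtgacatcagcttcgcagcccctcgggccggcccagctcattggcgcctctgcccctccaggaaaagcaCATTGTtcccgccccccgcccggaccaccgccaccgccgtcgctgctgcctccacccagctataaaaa
Zfp488: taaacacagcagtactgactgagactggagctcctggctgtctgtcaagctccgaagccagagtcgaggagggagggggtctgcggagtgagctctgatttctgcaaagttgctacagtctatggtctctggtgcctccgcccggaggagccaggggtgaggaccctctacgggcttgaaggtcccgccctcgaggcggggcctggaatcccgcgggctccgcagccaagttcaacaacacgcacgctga
Nkx2-2: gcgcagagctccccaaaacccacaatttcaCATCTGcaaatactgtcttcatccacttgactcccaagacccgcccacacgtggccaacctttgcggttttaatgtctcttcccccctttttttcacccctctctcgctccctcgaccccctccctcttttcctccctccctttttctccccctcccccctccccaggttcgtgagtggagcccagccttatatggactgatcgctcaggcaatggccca
The capitals in *Olig2* are the ACAATG core read on the other strand, 68 to 63 bases before the start, and those in *Nkx2-2* are the CAGATG E-box read on the other strand, 220 to 215 bases before the start. *Zfp488* held no match. Matches and their absence describe these windows only.

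The log2 ratios of all 8 factors stayed below 0 under each way of scaling the libraries, while their size did not hold. For *Nkx2-2* the bounds reached 0.06 on the deposited scale, so its direction was not resolved there. Rows without a gene name held 70.7% of all FPKM for the control and 80.7% for the mutant. Some short unnamed rows lay far above their own interval, such as 1 of 127 bases over *Nkx2-2* in the mutant (79.6 FPKM, interval 1.97 to 6.11). The weight of such values in the totals was not tested. Bringing each whole table to a total of 1000000 lowered the median of all tested genes to −0.61 and put all 8 factors past 1.5-fold, with *Olig1* at −1.91 and *Nkx2-2* at −0.82. That scaling also turned the split of all genes past 1.5-fold from 1210 lower and 2185 higher to 7398 lower (52.1% of all tested genes) and 640 higher. The shift of the median of all tested genes was −0.65. This scaling multiplies all values of a library by 1 number, so the order of the factors by ratio could hardly change, and it did not. Bringing only the named rows to that total gave 6 factors lower by over 1.5-fold, beside 10.7% of all tested genes (1518 lower and 1906 higher), with *Olig1* at −1.32 and *Nkx2-2* at −0.22.

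**Figure D5:**
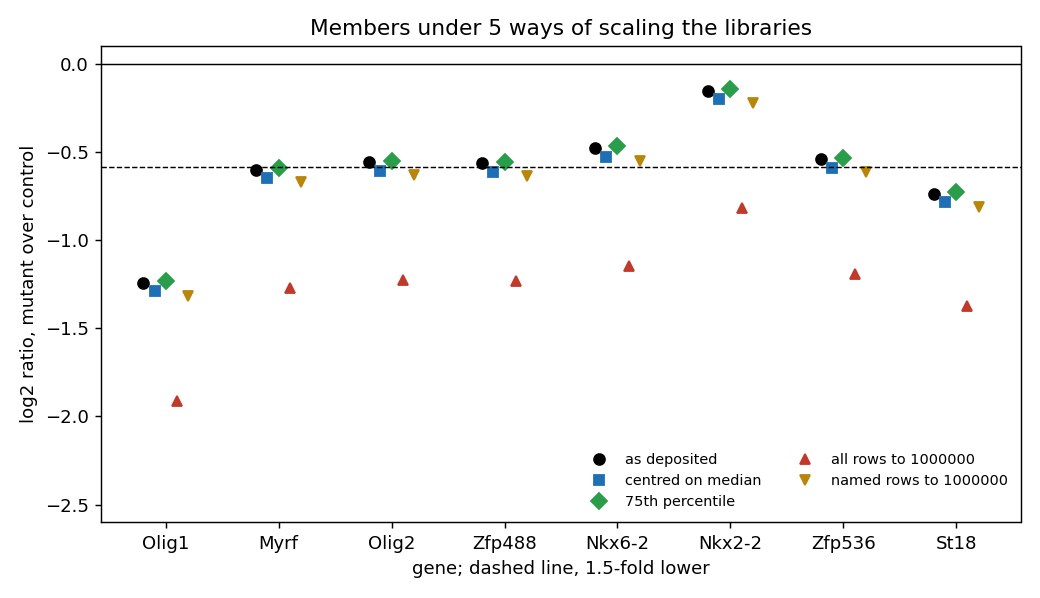
Log2 ratio of mutant to control FPKM of the 8 factors under 5 ways of scaling the libraries (symbols), with a dashed line at 1.5-fold lower. All points lie below 0. Bringing whole tables to a total of 1000000 moves every factor down, from −1.24 to −1.91 for *Olig1* and from −0.15 to −0.82 for *Nkx2-2*. The shift is nearly the same for each factor, so their order could hardly change.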

How the data were processed

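Optic nerves of control and mutant mice at P12 were profiled by RNA-seq, with 1 library per genotype. The deposited FPKM values are the authors' own, from Cufflinks run on TopHat alignments made under default settings (versions not given in the sources used here). The submitters' processing notes name the build mm9. The deposited tables hold for each row the FPKM, its lower and upper Cufflinks bound and a status.

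Rows were joined by symbol, merged names were split, and rows of a symbol were summed. A merged row gives its whole value to each of its names. Log2 ratios used a pseudocount of 0.1, which understates low genes. Genes were tested where either library reached an FPKM of 1 and the status was OK in both, and a fold of 1.5 was the cutoff. No p-value was computed. Depth was inferred as the smallest total, in steps of 1000 fragments, at which the bounds of unnamed rows under 100 bases (194 and 349) were whole multiples of 1 fragment, and 99.5% and 99.7% of the bounds lay within 0.01 of a whole number. Members and lists were chosen with earlier results of these data known. Named genes were the 8 members, family relatives that reached an FPKM of 1, at most the 3 lowest and 3 highest log2 ratios of each other list, *Tcf7l2*, and for each member the gene of the lineage lists with the nearest log2 ratio. *Nkx2-3*, *Nkx2-6*, *Olig3*, *Myrfl*, *Pdgfra*, *Cspg4*, *Rbfox3*, *Inpp5a*, *Nkx2-2os* and *6430503K07Rik* were named outside that rule, after their values were seen. The values of 1 listed gene are not reported here. *Zfp24* was matched as *Zfp191* through RefSeq synonyms. Strand and gene type came from GENCODE by symbol. The ratio and count steps were tested on simulated data. Alternatives covered pseudocount, filter, scaling, row choice, interval bounds, fold and grouping. Python 3.11.15, numpy 2.4.6, pandas 2.3.3 and matplotlib 3.10.9 were used.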

Additional observations from a re-analysis of the deposited data

Results flagged for a closer look

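An unnamed row of 5444 bases inside the span of *Zfp536*, on chromosome 7 from 38257234 to 38262677 (mm9), was listed at 6.58 FPKM in the mutant library (interval 6.06 to 7.04), about the level of *Zfp536* itself there (6.52 FPKM). It is given here because no unnamed row of the control table overlaps it. The control table held 1 unnamed row elsewhere in the span, of 502 bases. Unnamed rows numbered 12963 in the whole control table and 16801 in the whole mutant table.

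*6430503K07Rik*, on the strand opposite *Nkx2-2* within its span, is given because it was listed at 35.5 FPKM in the mutant and 2.66 in the control, a ratio of 13.3 that lies outside the comparison of the factors. The mutant value lay above its own interval of 3.60 to 7.68, whose lower bound is above the control interval of 2.05 to 3.28.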

How the results depend on the processing

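With 1 library per genotype, the spread between animals is unknown. No paired analysis was possible because each group has 1 sample. All 112 values of the 8 factors under the 14 alternatives to the FPKM, filter, scale and row choice stayed below 0, and 100 of them moved by no more than 0.5 times the width of the range from the Cufflinks bounds. The other 12 came from rescaling all or named rows and, for *Olig1*, from using the lower or upper bounds. The alternatives that changed only the filter, the status or the choice of rows left the values of the 8 factors identical. Each factor had 1 unmerged row and met every filter, so that part of the count could not have come out otherwise.

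Bringing whole tables to a total of 1000000 moved the medians to −1.23 for the specification factors and −1.23 for the differentiation factors. The medians became −0.93 for OPC, −1.26 for premyelinating and −1.49 for myelin markers. That of the other lineage regulators reversed to −0.57, beside −0.61 for all tested genes. Lower by over 1.5-fold were then 8 factors (all genes 7398 lower, 640 higher). Centring on the median and rescaling named rows each gave 6 factors, with premyelinating markers at −0.64 and −0.66 and all genes at 1389 lower and 1965 higher, and 1518 lower and 1906 higher. A fold above 2 left 1 factor, *Olig1* (all genes 522 lower, 975 higher). An FPKM of at least 5 in 1 library left 1290 higher genes.

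The comparison of both groups rests on few genes. Counting *Olig1* with the differentiation factors moved the specification median to −0.36, as did leaving it out. Counting *Nkx2-2* with the differentiation factors moved it to −0.90, as did leaving it out, and the difference of medians (differentiation minus specification, −0.0061) reversed to 0.35 and 0.34. Leaving out *Olig2* gave −0.70, with a difference of 0.13. The difference was also above 0 with a pseudocount of 1 (0.0015) and with the lower (0.086) or upper (0.13) bounds in place of FPKM. Its sign was therefore not stable. Leaving out *Olig1*, *Olig2* or *Nkx2-2* was added after seeing the data.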
